A study of Mus musculus with 8 samples.

Results

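Integrins are cell surface receptors made of 1 alpha and 1 beta chain, and the genes described here encode 10 of those chains, 6 alpha and 4 beta. They were taken by symbol (Itga4, Itga6, Itgav, Itgal, Itgam, Itgax, Itgb1, Itgb2, Itgb7 and Itgb3) from the 39179 gene IDs listed in each library. The cells were common lymphoid progenitors (CLPs) of C57BL/6 mouse bone marrow, which can give B, T and natural killer cells, and their total RNA was sequenced in bulk. The cCLP group (4 libraries) came from cells grown for 2 months on OP9, a mouse stromal line, with Flt3L and a low dose of IL-7. The ex vivo CLP group (4 libraries) came from freshly isolated cells. Both groups were sorted as lineage-negative, Flk2+, IL7R+, CD27+ and Ly6d- cells. Animal age and sex, the source of each replicate and any batch are not given in the labels used here, so p-values measure only the spread between these libraries, which may be technical.

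An integrin chain reaches the cell surface only as part of an alpha-beta dimer, so the chains are read here in pairs. Itga4 encodes alpha4, which pairs with beta1 (Itgb1) to bind VCAM-1 and fibronectin and with beta7 (Itgb7) to bind MAdCAM-1, the gut homing ligand. Beta2 (Itgb2) is the shared partner of the leukocyte chains alphaL (Itgal), alphaM (Itgam) and alphaX (Itgax), and alphaL-beta2 binds ICAMs. Alpha6 (Itga6) pairs with beta1 to bind laminins, while alphaV (Itgav) pairs with beta1 or beta3 (Itgb3) to bind ligands such as vitronectin and osteopontin. In bone marrow, alpha4-beta1 is known for holding progenitors to stroma.

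The deposited value of a gene is a whole-number score whose scale no label names. Values below are scaled values, that is, the deposited value divided by a library factor of 0.804 to 1.38. They are not counts, so the depth behind them is unknown, and a value of 0 is given as listed at 0. The sums per library ranged from 434009 to 604733 in cCLPs and from 378594 to 704305 in ex vivo CLPs.

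A pair of libraries lay with the group opposite to their labels. Across 6335 genes other than these chains, Spearman's rho of the library labelled cCLP 1 was 0.779 to 0.791 with cCLP 2 to 4 and 0.943 to 0.976 with ex vivo CLP 1, 3 and 4. For the library labelled ex vivo CLP 2 it was 0.957 to 0.985 with cCLP 2 to 4 and 0.730 to 0.800 with ex vivo CLP 1, 3 and 4. In 9 of the 10 chains the library labelled cCLP 1 was nearer to the mean of ex vivo CLP 1, 3 and 4, and in 9 of the 10 the library labelled ex vivo CLP 2 was nearer to the mean of cCLP 2 to 4. The exception in both cases was Itgb1. Itgal was only slightly nearer to 1 mean than to the other. Its log2 difference from the means of cCLP 2 to 4 and ex vivo CLP 1, 3 and 4 was 0.78 and 0.64 in the library labelled cCLP 1. In the library labelled ex vivo CLP 2 it was -1.22 and -1.36. The fold changes of the chains are therefore given over all 8 libraries as labelled and over 6 libraries, cCLP 2 to 4 against ex vivo CLP 1, 3 and 4. Orders of level are given within the groups of 3 only. No library was moved, and p-values over the 6 libraries hold only given that choice. The sort genes Flt3 and Cd27 were detected in every library. They belong to a list of 6 progenitor markers, and all 6 were tested over the 6 libraries. Of these, limma called 1 higher (Il7r) and 3 lower (Ly6d, Kit and Ly6a), beside 20.6% higher and 22% lower among all genes tested. For 2 of the 6 the filter on low values, given below, fixed the direction. Over the 8 libraries 0 of the 6 were called. Over the 6 libraries Il7r averaged 213 ± 16.3 in cCLP 2 to 4 and 36.8 ± 33.8 in ex vivo CLP 1, 3 and 4 (SD, n = 3 each). Ly6d, the gene for the marker sorted against, averaged 0.955 ± 0.0981 in cCLP 2 to 4 and 32.9 ± 2.82 in ex vivo CLP 1, 3 and 4. Over the 8 libraries neither was called (Il7r 1.40, adjusted p = 0.492, and Ly6d -1.97, adjusted p = 0.490, on the log2 scale with limma).

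Over the 6 libraries the chains did not move as a block. By the ratio of means, beta7 RNA was 19.7-fold lower in cCLP 2 to 4 and alphaX RNA 7.59-fold lower, while RNA of beta2, the partner of alphaX, was 2.70-fold higher and alpha6 RNA 3.16-fold higher. Mean beta1 RNA was 69.9 ± 2.60 in cCLP 2 to 4 and 68.3 ± 7.72 in ex vivo CLP 1, 3 and 4 (SD, n = 3 each). A gene was tested when it reached a scaled value of 10 in at least 4 of the 8 or 3 of the 6 libraries, which 7 of the 10 chains did in each comparison. Over the 6 libraries limma called 2 chains higher (Itga6 and Itgb2) and 2 lower (Itgax and Itgb7) at adjusted p below 0.05. That is 57.1% of the 7 tested, beside 42.6% of all 6573 genes tested (20.6% higher and 22% lower). Values of the groups did not overlap for 4 of the 7, again 57.1%, beside 55.2% of all genes tested. The share not overlapping is near that of all genes, and with 7 chains the share called is not read as a feature of integrins. With untested chains included, cCLP values lay above all ex vivo values for 3 of the 10 (Itga6, Itgb2 and Itgav), beside 27% of genes tested, and below them for 4 (Itgb7, Itgax, Itgam and Itgb3), beside 28.2%. These shares cover only genes that passed the filter, which Itgav, Itgam and Itgb3 did not, so they are not a like measure. The median log2 fold change was 0.04 over the tested chains and 0.005 over all genes tested. Itga6, Itgax and Itgb7 were below 10 in every library of the group where they were low, so the filter on low values fixed their direction. Passing it over the 6 libraries also required every library of the other group to reach 10. The lack of overlap of these 3 chains was thus fixed in advance, and of the 4 only Itgb2 was free to overlap. Over all 8 libraries as labelled, 0 of the 7 tested chains were called, beside 0% of 6486 genes with limma. For 0 of the 10 chains did the groups stay apart over the 8 libraries, beside 3.38% of genes tested (1.77% with cCLPs above and 1.6% below). At an unadjusted p below 0.05, 475 genes and none of the chains passed over the 8 libraries.

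**Figure D1:**
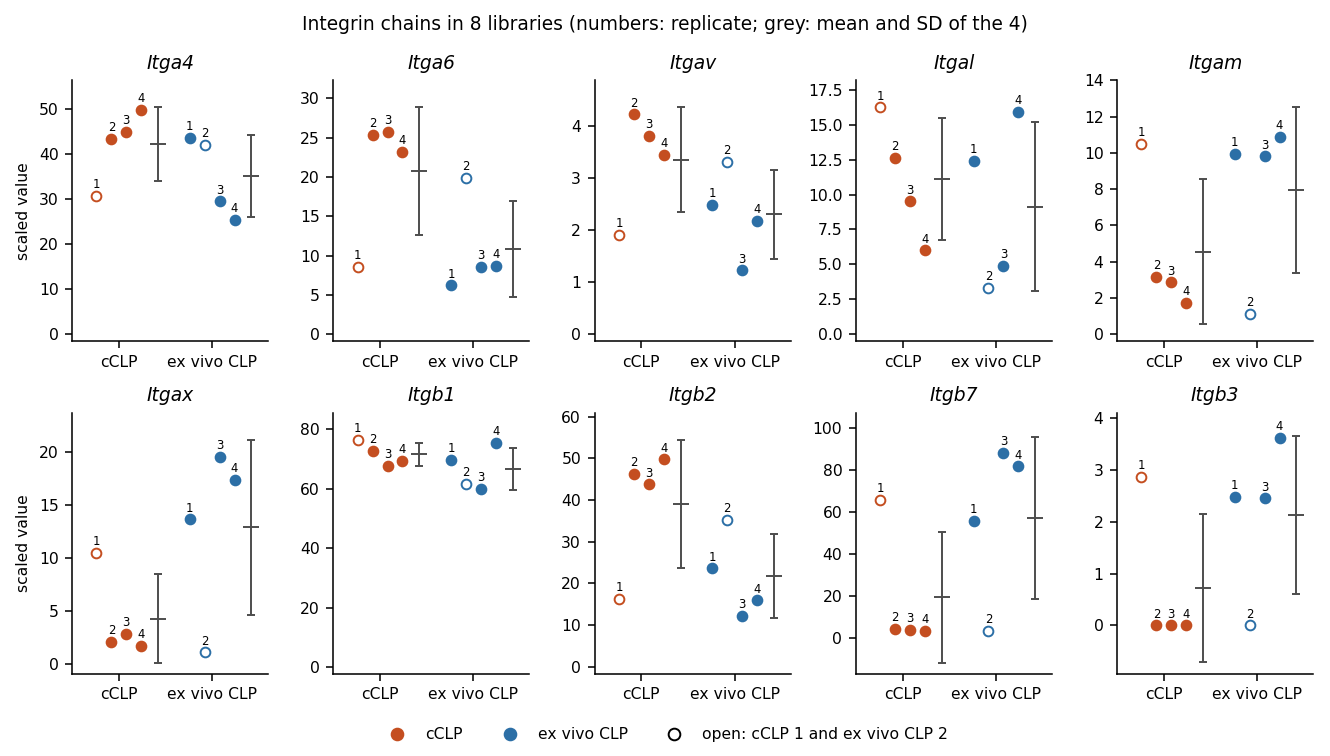
Scaled value of each integrin chain (linear y axis from 0, or below it where an SD bar extends there) in cCLP and ex vivo CLP libraries; numbers are replicates, open circles the libraries labelled cCLP 1 and ex vivo CLP 2, and grey bars the mean and SD of all 4. In the Itgb7, Itgax, Itgam and Itgb3 panels the open cCLP circle lies above the filled cCLP points and the open ex vivo circle below the filled ex vivo points.

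**Figure D2:**
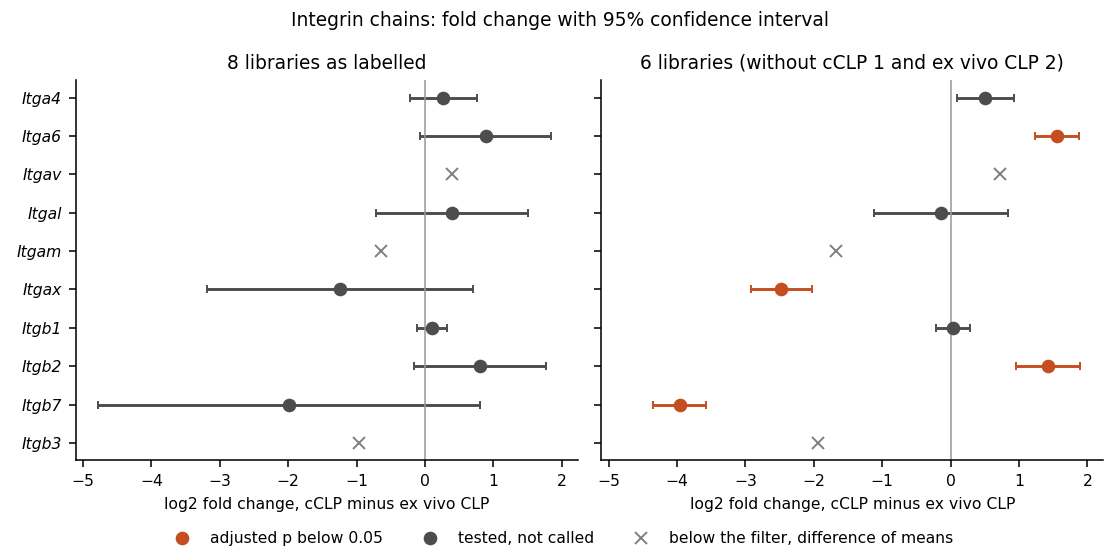
Log2 fold change (cCLP minus ex vivo CLP) with its 95% confidence interval for the 10 chains over 8 libraries (left) and 6 libraries (right); crosses are chains below the filter, shown as a difference of means without a test. Intervals of all 7 tested chains span 0 on the left. On the right those of Itga6, Itgb2 and Itga4 lie above 0 and those of Itgax and Itgb7 below, while Itga4 was not called (limma adjusted p = 0.0529).

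Upstream sequence was available for 6 of the 10 chains in RefSeq promoter windows on GRCm38.p6. The 160 bases before the RefSeq start, which for Itgb7 and Itgax lies a few bases inside the gene as placed by GENCODE, are shown for 3 chains that were lower in cCLP 2 to 4 (Itgb7, Itgax and Itgam) and for the pair Itga4 and Itgb1, neither of which was called, so that the windows can be set side by side. Sequences run 5′ to 3′ on the strand of the gene. Capitals mark matches, on either strand, to GAGGAA (the core of PU.1 sites), TGTGGT (the core of RUNX sites), GGGCGG (the GC box) or TATAAA (the TATA box), and none of the marked matches overlap.
Itgb7 (chr15:102231936-102232095, minus strand): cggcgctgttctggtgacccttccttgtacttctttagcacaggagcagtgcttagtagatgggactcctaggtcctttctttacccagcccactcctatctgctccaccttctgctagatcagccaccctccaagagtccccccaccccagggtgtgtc
Itgax (chr7:128129390-128129549, plus strand): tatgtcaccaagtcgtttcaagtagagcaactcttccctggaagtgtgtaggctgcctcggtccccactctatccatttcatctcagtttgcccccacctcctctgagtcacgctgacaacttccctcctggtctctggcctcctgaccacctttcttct
Itgam (chr7:128062480-128062639, plus strand): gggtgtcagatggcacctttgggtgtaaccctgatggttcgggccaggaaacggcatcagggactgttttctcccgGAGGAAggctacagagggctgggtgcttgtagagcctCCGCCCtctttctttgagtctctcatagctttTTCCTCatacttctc
Itga4 (chr2:79255266-79255425, plus strand): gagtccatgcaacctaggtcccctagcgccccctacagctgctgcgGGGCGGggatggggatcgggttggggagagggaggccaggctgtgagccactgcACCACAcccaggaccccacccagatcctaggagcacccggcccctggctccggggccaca
Itgb1 (chr8:128685494-128685653, plus strand): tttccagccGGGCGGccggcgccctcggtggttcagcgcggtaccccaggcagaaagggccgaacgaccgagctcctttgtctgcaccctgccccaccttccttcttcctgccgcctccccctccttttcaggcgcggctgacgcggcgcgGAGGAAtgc
Within 250 bases before the start, Itgam held 2 matches to GAGGAA and 1 to GGGCGG, and Itgb1 held 1 of each. Itgav, whose window is not printed, also held 2 matches to GAGGAA. Itga4 held 1 match to TGTGGT and 1 to GGGCGG. Itgb7 and Itgax held none of the 4 motifs in these windows. Among all 32851 promoter windows of this length, 23.3% held GAGGAA, 14% TGTGGT, 32.7% GGGCGG and 12.4% TATAAA. These matches describe letters in a window and were not tested against the expression values.

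Itgb7 (ENSMUSG00000001281, chromosome 15, 102215995 to 102231944, minus strand, GRCm38) showed the largest difference of the 10. Its scaled values were 65.9, 4.22, 3.81 and 3.43 in cCLP 1 to 4, against 55.9, 3.31, 88.3 and 81.9 in ex vivo CLP 1 to 4. Within each label 1 library is therefore far from the other 3, and the groups overlap over all 8. The log2 fold change over the 8 libraries was -1.98 ± 1.21 (SE), with limma adjusted p = 0.488. Over the 6 libraries Itgb7 averaged 3.82 ± 0.392 in cCLPs and 75.4 ± 17.1 in ex vivo CLPs (SD, n = 3 each), and it fell by 3.96 ± 0.17 on the log2 scale (limma adjusted p = 5.16e-07). The 1 added before taking logs makes this smaller than the 19.7-fold ratio of the means. The deposited value was 4 for all of cCLP 2 to 4, and the SD given for them comes from the library factors alone.

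Its alpha partner Itga4 (ENSMUSG00000027009, chromosome 2, 79255426 to 79333123) was not called in either comparison. Its values were 30.6, 43.2, 44.7 and 49.8 in cCLP 1 to 4, against 43.5, 41.9, 29.4 and 25.4 in ex vivo CLP 1 to 4. The groups overlapped over both the 8 and the 6 libraries, since ex vivo CLP 1 lay above cCLP 2. The log2 fold change was 0.27 ± 0.21 (SE; adjusted p = 0.515) over the 8 libraries. Over the 6 it was 0.51 ± 0.18 (adjusted p = 0.0529), with a 95% interval from 0.09 to 0.93. Itga4 was called higher without ex vivo CLP 1 (0.73, adjusted p = 0.00117), with a pseudocount of 5 (0.46, adjusted p = 0.0497) and with the replicate number as a block (0.77, adjusted p = 0.000218). Among the 6 libraries only replicates 3 and 4 occur in both groups, so the block fit takes its group difference from those replicates alone. Some Itga4 exons share bases with Cerkl on the other strand, and Cerkl was listed at no more than 1 in any library. Itgae, which encodes alphaE, the other alpha chain that pairs with beta7, was listed at 0 in all 8 libraries.

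Itgb2 (ENSMUSG00000000290, chromosome 10, 77530252 to 77565708), the beta2 gene, was higher in cultured cells over the 6 libraries. Its values were 16.2, 46.4, 43.8 and 49.8 in cCLP 1 to 4, against 23.6, 35.3, 12.3 and 15.9 in ex vivo CLP 1 to 4. With cCLP 1 and ex vivo CLP 2 left out, every cCLP value lies above every ex vivo value. The log2 fold change was 0.80 ± 0.42 (SE; adjusted p = 0.488) over the 8 libraries and 1.43 ± 0.20 (adjusted p = 0.000857) over the 6. Itgb2 reached 10 in every library, so its direction was not fixed by the filter. It remained called over the 6 libraries under all alternative settings run.

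None of the 3 beta2 partners was called higher. Itgax (ENSMUSG00000030789, chromosome 7, 128129547 to 128150657) encodes alphaX, also known as CD11c and used as a marker of dendritic cells. Its values were 10.5, 2.11, 2.86 and 1.72 in cCLP 1 to 4, against 13.7, 1.10, 19.6 and 17.4 in ex vivo CLP 1 to 4. cCLP 2 to 4 and ex vivo CLP 2 were low, and the other 4 were all above 10. Itgax had a log2 fold change of -1.24 ± 0.85 (SE; adjusted p = 0.490) over the 8 libraries, and over the 6 it fell by 2.47 ± 0.20 (adjusted p = 1.94e-05).

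Itgam (ENSMUSG00000030786, chromosome 7, 128062640 to 128118491), its neighbour on the chromosome with 11055 bases between them, encodes alphaM (CD11b), found on granulocytes and macrophages. Its values were 10.5, 3.16, 2.86 and 1.72 in cCLP 1 to 4, against 9.95, 1.10, 9.81 and 10.9 in ex vivo CLP 1 to 4. They just missed the filter, with ex vivo CLP 1 and 3 slightly under 10 and cCLP 1 and ex vivo CLP 4 slightly over it, so Itgam was not tested. In a fit with no filter on low values over the 6 libraries it fell by 1.67 ± 0.18 (SE; adjusted p = 0.000231), where 36.3% of 13755 genes were called. The same fit over the 8 libraries gave -0.64 ± 0.65 (adjusted p = 0.640), with 0% of 13861 genes called. The annotation also places Gm49368, a gene on the same strand that shares 3450 exonic bases with Itgam, at this locus.

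Itgal (ENSMUSG00000030830, chromosome 7, 127296260 to 127335138), which encodes alphaL of LFA-1, varied as much within the groups as between them. Its values were 16.2, 12.6, 9.52 and 6.00 in cCLP 1 to 4, against 12.4, 3.31, 4.90 and 15.9 in ex vivo CLP 1 to 4. The groups overlap with and without the pair of libraries that stand apart. The log2 fold change was 0.40 ± 0.49 (SE; adjusted p = 0.650) over the 8 libraries and -0.14 ± 0.42 (adjusted p = 0.809) over the 6. The 95% interval over the 6 ran from -1.12 to 0.84. Leaving out single libraries turned the sign, to 0.17 without ex vivo CLP 4, 0.12 without cCLP 4 and 0.003 without ex vivo CLP 1.

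Markers of the neutrophil and monocyte lineages, among them granule genes of their precursors, were also lower in cCLP 2 to 4. Of 15 neutrophil and monocyte markers, 14 were tested over the 6 libraries, and 13 fell and 1 (Fcgr3) rose, beside 22% lower and 20.6% higher among all genes tested. Over the 8 libraries 0 of 13 tested were called. For 11 of the 14 the filter fixed the direction. Their summed scaled value was 353 to 407 in cCLP 2 to 4 and 1501 to 3535 in ex vivo CLP 1, 3 and 4. It was 1811 in the library labelled cCLP 1 and 251 in the library labelled ex vivo CLP 2. A value of 0 in all of cCLP 2 to 4 was found for 10 of the 15, namely Elane, Ctsg, Ngp, Ltf, Camp, S100a8, S100a9, Csf1r, Csf3r and Cebpe. The sum of 11 dendritic markers was 343 to 349 in cCLP 2 to 4 and 707 to 774 in ex vivo CLP 1, 3 and 4. It was 689 in the library labelled cCLP 1 and 319 in the library labelled ex vivo CLP 2. Over the 6 libraries 6 of the 8 tested fell and 0 rose, beside 22% lower and 20.6% higher among all genes tested. For 5 of the 8 the filter fixed the direction, and over the 8 libraries 0 of 8 tested were called. H2-Aa, H2-Ab1 and Clec9a were listed at 0 in cCLP 2 to 4 and above 0 in ex vivo CLP 1, 3 and 4, while Zbtb46 and Xcr1 were listed at 0 in both groups. The part of such cells in the Itgam and Itgax values was not tested. In these bulk samples, fewer cells of a type and less RNA per cell cannot be told apart.

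Itgb1 (ENSMUSG00000025809, chromosome 8, 128685654 to 128733200), the beta chain with the most alpha partners, varied least of the 7 tested chains. Its values were 76.4, 72.7, 67.6 and 69.5 in cCLP 1 to 4, against 69.6, 61.7, 60.1 and 75.4 in ex vivo CLP 1 to 4. Over the 8 libraries the log2 fold change was 0.10 ± 0.10 (SE; adjusted p = 0.563). Over the 6 it was 0.04 ± 0.11 (adjusted p = 0.800), with a 95% interval from -0.21 to 0.29. Without ex vivo CLP 3 it was -0.051.

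Itga6 (ENSMUSG00000027111, chromosome 2, 71745616 to 71858416), a partner of beta1, was higher in cultured cells over the 6 libraries. Its values were 8.60, 25.3, 25.7 and 23.2 in cCLP 1 to 4, against 6.22, 19.8, 8.58 and 8.69 in ex vivo CLP 1 to 4. The highest value among cCLP 1 and ex vivo CLP 1, 3 and 4 is below the lowest among the other 4 libraries. The log2 fold change was 0.89 ± 0.42 (SE; adjusted p = 0.488) over the 8 libraries and 1.55 ± 0.14 (adjusted p = 4.26e-05) over the 6.

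The alphaV and beta3 genes were near the bottom of the scale and were not tested. Itgav (ENSMUSG00000027087, chromosome 2, 83724397 to 83806916) was listed at 2, 4, 4 and 4 in cCLP 1 to 4, against 2, 3, 1 and 3 in ex vivo CLP 1 to 4. At such values a step of 1 is a large share of the level. With no filter on low values Itgav had a log2 fold change of 0.72 ± 0.20 (SE; adjusted p = 0.0235) over the 6 libraries, where 36.3% of genes were called, and 0.40 ± 0.27 (adjusted p = 0.537) over the 8, where 0% were. Itgb3 (ENSMUSG00000020689, chromosome 11, 104608000 to 104670476), which with Itga2b forms the platelet fibrinogen receptor, was listed at 3, 0, 0 and 0 in cCLP 1 to 4, against 2, 0, 2 and 5 in ex vivo CLP 1 to 4. It was listed at 0 in exactly the libraries in which Itgb7 was lowest. Itga2b was also listed at 0 in those 4 libraries and at 1 to 3 in the others. Of 8 megakaryocyte and platelet markers, 7 were listed at 0 in cCLP 2 to 4 (Gp9 was not), and Ppbp, Gp1ba, Gp1bb and Vwf were listed at 0 in ex vivo CLP 1, 3 and 4 too. Their summed value was 4.76 to 7.72 in cCLP 2 to 4 and 6.22 to 13.5 in ex vivo CLP 1, 3 and 4, and its part in the Itgb3 values was not tested.

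Levels of different chains were compared only where the order held in all 3 libraries of a group both for the scaled value and for the scaled value per kilobase of exon, since the length scaling of the score is not stated. On that basis Itgb1 was above the other 9 chains in cCLP 2 to 4, and Itgb3 was below the other 9. Itgb2 and Itga4 were each above 7 chains, but their order between them was not settled. Itga6 came below these and above the remaining 6. In ex vivo CLP 1, 3 and 4, Itgb7 and Itgb1 were each above the other 8 chains and could not be ordered between them. Per kilobase of exon Itgb7 averaged 27.2 and Itgb1 16.7 there. In cCLP 2 to 4, by contrast, Itgb7 averaged 1.38 per kilobase and lay below 4 chains (Itga4, Itga6, Itgb1 and Itgb2).

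Read as dimers, 7 of the 8 pairs had alpha-to-beta ratios that did not overlap between the groups of 3. The 55.2% of single genes tested is not a like measure. No such share was computed for ratios of gene pairs, and some pairs hold chains that were not tested (Itgav, Itgam and Itgb3). The pairs are not independent, since Itgb1 and Itgb2 are each in 3 of them. The log2 ratio of alpha over beta was computed in each library from scaled values plus 1. It is given without a test. Its difference between groups would not depend on gene length but for the added 1, which weighs more at low values. For Itga4 over Itgb7 the ratio was -1.08, 3.08, 3.25 and 3.52 in cCLP 1 to 4, against -0.36, 3.32, -1.55 and -1.65 in ex vivo CLP 1 to 4. Alpha4 RNA thus exceeded beta7 RNA on this scale in cCLP 2 to 4 and was below it in ex vivo CLP 1, 3 and 4. For Itga4 over Itgb1, the other alpha4 dimer, the ratio was -1.29, -0.74, -0.58 and -0.47 in cCLP 1 to 4, against -0.67, -0.55, -1.01 and -1.53 in ex vivo CLP 1 to 4, and the groups overlapped. Over the 6 libraries the difference between groups was 4.47 for Itga4-Itgb7 and 0.47 for Itga4-Itgb1.

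The 3 beta2 dimers all shifted towards the beta chain in cCLP 2 to 4. The mean log2 ratio of Itgax over Itgb2 was -3.90 ± 0.34 in cCLP 2 to 4 and 0.003 ± 0.70 in ex vivo CLP 1, 3 and 4 (SD, n = 3 each). For Itgam over Itgb2 it was -3.76 ± 0.40 and -0.66 ± 0.46 in the same groups. For Itgal over Itgb2 it was -2.25 ± 0.55 and -0.68 ± 0.61 in the same groups, with Itgb2 called higher and Itgal not called. The groups of 3 did not overlap for any of these ratios. For Itga6 over Itgb1 the ratio averaged -1.46 ± 0.09 in cCLP 2 to 4 and -2.98 ± 0.31 in ex vivo CLP 1, 3 and 4, again without overlap. The Itgav pairs rest on the low values given above, with a difference of 0.69 for Itgav-Itgb1 and 2.66 for Itgav-Itgb3 that dropped to 0.31 and 0.99 with a pseudocount of 5. Over all 8 libraries the groups overlapped for every one of the 8 pairs.

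**Figure D3:**
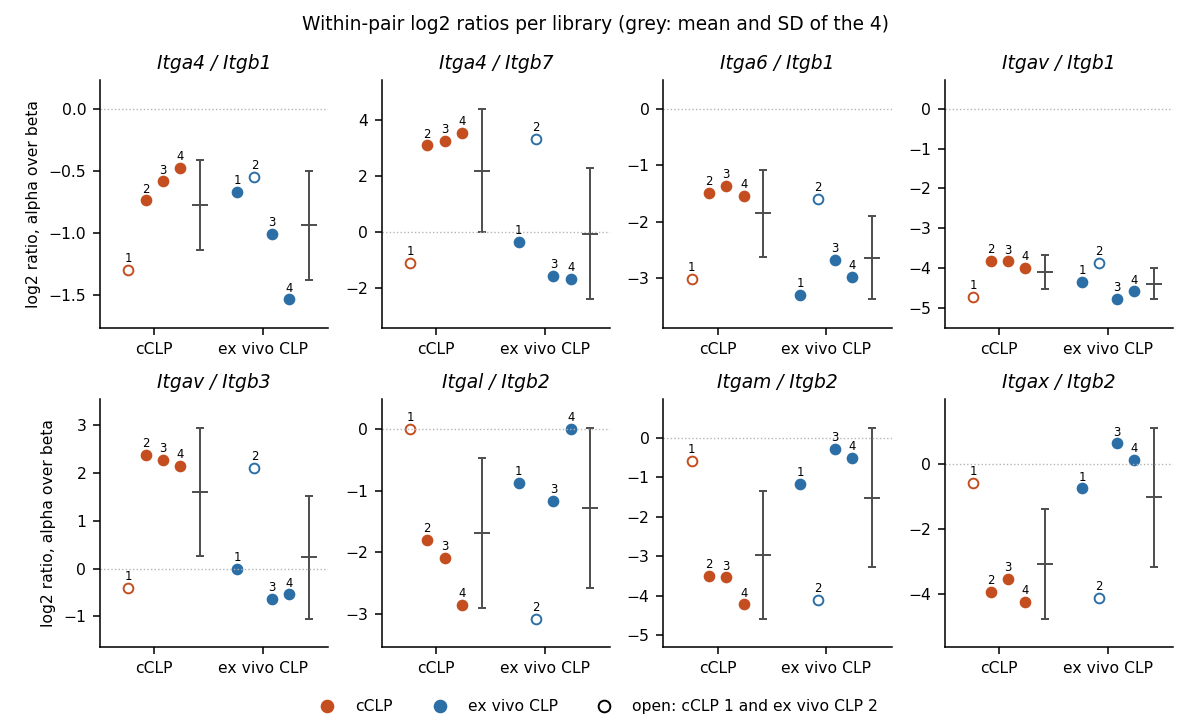
Log2 ratio of alpha over beta chain (scaled values plus 1) per library for 8 integrin dimers, with cCLP left and ex vivo CLP right, open circles for the libraries labelled cCLP 1 and ex vivo CLP 2, and grey bars for the mean and SD of all 4. The Itga4-Itgb7 ratio is above 3 in cCLP 2 to 4 and below 0 in ex vivo CLP 1, 3 and 4, while the Itga4-Itgb1 ratios of the groups overlap.

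Of 16 further integrin chain genes, 10 were listed at 0 in each of cCLP 2 to 4 and 8 in each of ex vivo CLP 1, 3 and 4. Itga8 encodes alpha8, a partner of beta1 known from mesenchymal cells. It was listed at 0, 14, 18 and 21 in cCLP 1 to 4, against 0, 5, 0 and 0 in ex vivo CLP 1 to 4. It was called higher over the 6 libraries (limma adjusted p = 4.81e-07), with the direction fixed by the filter, and no fold is given against a group listed at 0. Of 12 stromal markers that OP9 cells could bring, 8 were listed at 0 in each of cCLP 2 to 4 (Col1a1, Col1a2, Col3a1, Sparc, Lum, Dcn, Cxcl12 and Vcam1), and 7 of these, all but Vcam1, were also listed at 0 in ex vivo CLP 1, 3 and 4. Their summed value was 11.4 to 21.1 in cCLP 2 to 4 and 11.03 to 16.2 in ex vivo CLP 1, 3 and 4. Fn1, the fibronectin gene and a member of that list, had scaled values of 11.6, 6.66 and 6.00 in cCLP 2 to 4 and 0, 0 and 0.725 in ex vivo CLP 1, 3 and 4. Itgb5 was listed at 11, 3, 7 and 4 in cCLP 1 to 4 and at 6, 3, 6 and 11 in ex vivo CLP 1 to 4, and Itga5 at 3, 2, 1 and 1 and at 2, 1, 1 and 5, both too low to test.

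Among 21 integrin ligand genes, 3 were tested over the 6 libraries, and 1 rose and 0 fell, beside 20.6% higher and 22% lower among all genes tested. Spp1, which encodes osteopontin, a ligand of alphaV and alpha4 integrins, had scaled values of 10.5, 93.8, 104.7 and 97.8 in cCLP 1 to 4, against 8.70, 73.8, 19.6 and 17.4 in ex vivo CLP 1 to 4. It rose by 2.69 ± 0.26 on the log2 scale over the 6 libraries (limma adjusted p = 0.000161) and was not called over the 8 (1.34, adjusted p = 0.488). The beta2 ligand genes Icam1 and Icam2 were not called over the 6 libraries, at -0.59 ± 0.22 (adjusted p = 0.0607) and -0.12 ± 0.12 (adjusted p = 0.452).

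Genes that switch integrins on or off were called in both directions over the 6 libraries. Of 23 in the activation list, 15 were tested over the 6 libraries, and 1 rose and 4 fell. These 5 of 15 are a smaller share than the 42.6% called among all genes tested. The list had a median log2 fold change of -0.15 beside 0.005 over all genes. Sipa1, which inactivates the GTPase Rap1, averaged 59.4 ± 4.11 in cCLP 2 to 4 and 33.1 ± 2.86 in ex vivo CLP 1, 3 and 4 (SD, n = 3 each; log2 fold change 0.83 ± 0.11 SE, adjusted p = 0.000366). Of the Rap1 genes, Rap1b fell by 0.60 ± 0.18 (adjusted p = 0.0289), while Rap1a was not called (-0.16 ± 0.11, adjusted p = 0.272). Rasgrp2, a Rap1 exchange factor and another member that fell, averaged 9.73 in cCLP 2 to 4 and 20.5 in ex vivo CLP 1, 3 and 4. Flna, whose product filamin binds integrin beta tails, fell by 0.49 ± 0.11 (adjusted p = 0.00649), and Cyth1, an ARF exchange factor that acts on beta2, by 0.60 ± 0.10 (adjusted p = 0.00179). The talin gene Tln1 (-0.08 ± 0.17, adjusted p = 0.718) and the kindlin gene Fermt3 (-0.007 ± 0.10, adjusted p = 0.962), whose products bind beta tails to activate them, were not called.

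In the list of integrin signalling and adhesion genes 27 of 40 were tested over the 6 libraries, and 8 rose and 8 fell (median -0.08), beside 20.6% higher and 22% lower among all genes tested. The largest rises among called members were in Fyn, a Src family kinase (1.17 ± 0.12, adjusted p = 0.000105), Vcl, which encodes vinculin (0.86 ± 0.15), and Ptk2b, which encodes the adhesion kinase PYK2 (0.73 ± 0.12). The largest falls among them with a mean of at least 20 were in Zyx, which encodes zyxin (-1.16 ± 0.20, adjusted p = 0.00207), Lyn (-0.44 ± 0.10) and Ilk, the integrin-linked kinase gene (-0.44 ± 0.11). In the list of tetraspanins and other membrane partners 11 of the 14 genes found were tested, and 5 rose and 2 fell (median 0.22), beside the same shares. The name Cd98, also in that list, matched no gene ID and is an alias of Slc3a2. Cd81, a tetraspanin gene whose product associates with alpha4-beta1, averaged 190 ± 22.3 in cCLP 2 to 4 and 64.0 ± 2.00 in ex vivo CLP 1, 3 and 4 (1.55 ± 0.11, adjusted p = 1.18e-05). Tspan32 and Cd37 also rose, by 1.06 ± 0.11 and 0.84 ± 0.14. Cd44, a hyaluronan receptor gene, averaged 24.97 ± 1.46 in cCLP 2 to 4 and 91.0 ± 26.1 in ex vivo CLP 1, 3 and 4 (-1.78 ± 0.21, adjusted p = 0.000283), and Slc3a2, which encodes the CD98 heavy chain that binds beta1 tails, fell by 0.90 ± 0.20. No gene of these 4 lists was called over all 8 libraries.

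**Figure D4:**
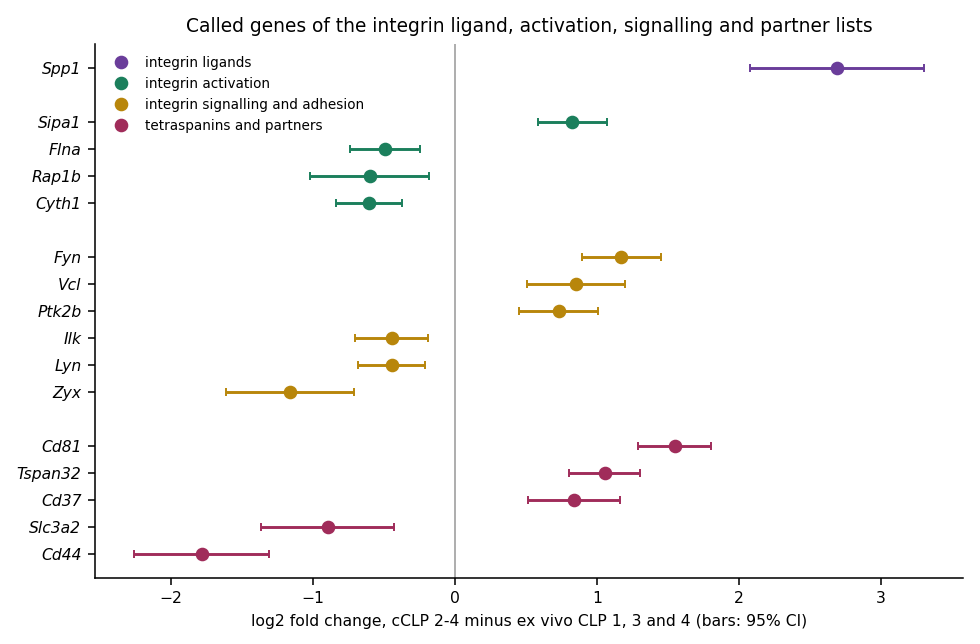
Log2 fold change (cCLP 2-4 minus ex vivo CLP 1, 3 and 4) with 95% confidence interval for the called genes of the ligand, activation, signalling and partner lists that the naming rule picked. Spp1 (2.69) and Cd44 (-1.78) are the extremes.

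Genes with the pattern most like each tested chain were ranked by the root mean square difference of mean-centred log2 values over the 8 libraries among 6268 other protein-coding genes, as a description. For Itgb7 they were Cd7 (0.126), Pygl (0.136) and Laptm4b (0.163), beside a median of 1.99 over all genes, and all 3 were listed at 0 in cCLP 2 to 4 and ex vivo CLP 2. For Itgax they were Cd68 (0.187), Selplg (0.198) and Emp1 (0.232), beside a median of 1.28. Selplg, the gene for the selectin ligand PSGL-1, had scaled values of 182, 34.8, 47.6 and 41.2 in cCLP 1 to 4, against 179, 31.9, 239 and 212 in ex vivo CLP 1 to 4. For Itgb2 they were Rhoq (0.128), Rabgap1 (0.130) and Slc39a6 (0.135), beside a median of 0.740. For Itga6 they were St3gal1 (0.125), the cholesterol synthesis gene Cyp51 (0.129) and Gramd3 (0.137), beside a median of 0.765. For Itga4 (Ska2, Crlf3 and Rmc1), Itgal (Trim25, Cndp2 and Uqcrq) and Itgb1 (Rfc1, Slc35a4 and Add1) the differences were 0.0740 to 0.0804, 0.226 to 0.273 and 0.0262 to 0.0339, beside medians of 0.377, 0.745 and 0.249.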

How the data were processed

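RNA of sorted cells was sequenced from stranded total RNA libraries (100 ng input, paired reads of 75 nt), per the labels. The submitters' processing notes name TopHat2, Bowtie2, HTSeq 1.0.6 and GRCm38 (mm10), with no role, strand setting or annotation release. The values deposited by the authors are whole numbers, treated here as a score on a scale of unknown unit. They were not treated as counts, because cCLP 3 and 4 differed by less than sampling error allows (dispersion index 0.260 over 6793 genes, where sampling of independent reads gives about 1), as did ex vivo CLP 3 and 4 (0.540 over 6896). Depth is unknown. No library repeated another (0 identical pairs).

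GENCODE vM21 gave symbols, positions and exons for 37607 of 39179 gene IDs. Libraries were scaled by a trimmed mean of M values (30% of ratios and 5% of levels trimmed). The whole table, as log2(scaled value + 1), was fitted by group with limma 3.58.1 in R 4.3.3 (mean-variance trend, robust moderation), two-sided, with Benjamini-Hochberg adjustment over all genes tested. The fit was tested on simulated data in which only genes with a mean of at least 20 changed and every library lay with its own group. That test does not cover changes of lower genes or libraries that lie with the opposite group. Log2 fold changes are cCLP minus ex vivo CLP and understate changes of low genes. Alternatives were other scalings, filters, pseudocounts (0.5 and 5) and moderation, a replicate block and leaving out each library. The chains, lists, alternatives and the choice of 6 libraries were made with earlier results of these data known. The rule for named genes took all 10 chains, other chains with a value of at least 5, the 3 largest changes up and down of each list among called genes with a mean of at least 20, and the 3 genes most like each tested chain. List genes outside it (Itga2b, Itgae, Fn1, Icam1, Icam2, Rap1a, Rasgrp2, Tln1 and Fermt3) were chosen after their values were seen. Lists for 5 other cell types were also summed over cCLP 2 to 4 and ex vivo CLP 1, 3 and 4: B lineage (15.2 to 27.5 and 34.8 to 43.5), T lineage (10.5 to 13.7 and 22.5 to 33.6), natural killer and innate lymphoid (45.7 to 58.0 and 73.5 to 79.7), erythroid (4.29 to 7.62 and 8.70 to 42.9) and mast and basophil (listed at 0, and 26.1 to 109). In the library labelled cCLP 1 these sums were, in the same order, 35.3, 31.5, 65.9, 13.4 and 24.8. In the library labelled ex vivo CLP 2 they were 48.5, 15.4, 37.5, 3.31 and 0. The B lineage sum of ex vivo CLP 2 was thus above those of both groups of 3.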

Additional observations from a re-analysis of the deposited data

Results flagged for a closer look

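In groups of 4 libraries, the highest or lowest value was set against the nearest of the others, as a share of the group's range (Dixon's test at the 95% level). This singled out 6 of 20 sets of values. The chance share of about 1 in 20 holds for independent sets of continuous values. These sets share libraries and the score has whole-number steps and ties, so the count is not read against that share. All 6 were in the libraries labelled cCLP 1 or ex vivo CLP 2. In the library labelled cCLP 1, Itga6 was the lowest of the group at 8.60 (23.2 to 25.7 in the other 3). In the same library Itgam was the highest at 10.5 (1.72 to 3.16 in the others), Itgax at 10.5 (1.72 to 2.86), Itgb7 at 65.9 (3.43 to 4.22) and Itgb3 at 2.87 (listed at 0 in the others). In the library labelled ex vivo CLP 2, Itgam was the lowest at 1.10 (9.81 to 10.9 in the others).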

How the results depend on the processing

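Over all 8 libraries the count of genes called was 0 in both directions under every alternative that kept at least 7 libraries, the replicate block and leaving out each library (0 to 0) included. With cCLP 1 and ex vivo CLP 2 both left out it was 1352 higher and 1447 lower, and Itgal turned to -0.14. Over the 6 libraries the counts were 2215 higher and 2778 lower with no filter on low values. Leaving out 1 library gave 852 (without cCLP 4) to 1579 higher and 1204 to 1685 lower. Itga6, Itgax, Itgb2 and Itgb7 kept their calls and directions over the 6 libraries under all alternatives run in which they were tested (Itgax was not, with a filter on the mean). In settings that kept the main filter on low values, it fixed the direction of Itga6, Itgax and Itgb7. Of these chains only Itgb2 was free to turn there. Itgal turned to 0.003, 0.17 and 0.12 without ex vivo CLP 1, ex vivo CLP 4 or cCLP 4, and Itgb1 to -0.051 without ex vivo CLP 3. Over the libraries left out in turn, Itgal ranged from -0.59 to 0.17 and Itgb1 from -0.051 to 0.11. The cause was not tested. The replicate numbers were not taken to pair libraries, since the source of each replicate is not given in the labels used here. Deviations of same-numbered libraries from the means of their labelled groups correlated at 0.542, 0.82899, -0.531 and -0.846. Those means include cCLP 1 and ex vivo CLP 2, which lie with the opposite group, so the correlations cannot decide on pairing. With the replicate block, 1245 genes were higher and 1249 lower over the 6 libraries, and Itga4 was called higher (0.77). That fit takes its group differences from replicates 3 and 4 alone, the only ones in both groups of the 6. A pseudocount of 5 brought the pair differences over the 6 libraries to 3.62 for Itga4-Itgb7, 1.18 for Itga6-Itgb1, -2.25 for Itgam-Itgb2 and -2.84 for Itgax-Itgb2, with the direction kept. Values near 0 are limited by the whole-number steps of the score.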
